A study of Mus musculus with 4 samples.

Results

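The macrophage-rich tumour niche is a set of 677 spots among 3389 tumour spots and 13046 spots over tissue, recorded on 4 spatial capture areas of mouse brain. A tumour spot lay over tissue, held at least 2000 UMIs (unique molecular identifiers, one per captured molecule) and reached 1500 summed CPM (UMIs scaled to a common total per spot) of 21 proliferation genes. Within each area, the 20% of tumour spots with the highest summed CPM of Mrc1, Ms4a7, F13a1, Msr1, Adgre1 and Cd14 were taken as members. These 6 genes encode a mannose receptor, a tetraspan membrane protein of the Ms4a family, a subunit of coagulation factor XIII, a scavenger receptor, an adhesion receptor long used as the F4/80 marker and a co-receptor for lipopolysaccharide. They chose the spots, so their levels are a description and carry no test.

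Macrophages in brain tumours come from blood monocytes, from macrophages of the brain's borders and from resident microglia. They clear debris, present antigen on MHC class II, and secrete chemokines and complement proteins. In malignant glioma they are often the most abundant immune cells, and they are known to differ between the vessel-rich, hypoxic and peripheral parts of a tumour.

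The sections came from brains that had received a tumour inoculation followed by resection, all at day 11, as formalin-fixed, paraffin-embedded tissue. Areas TREAT 1+4 and TREAT 2+3 came from animals given a hydrogel and areas Vehicle 1+4 and Vehicle 2+3 from animals without it. The series text states 4 animals while the 4 areas carried 8 separate pieces of tissue, 2 on each, and the labels tie no piece to an animal. The p-values below therefore rest on these areas, whose spread may be technical. For TREAT against Vehicle they measure the spread between areas. The other tests compare spots within each area, and the interaction given near the end sets those differences in TREAT against those in Vehicle. edgeR's p-values and SE draw partly on a spread shared over all genes. They can therefore be small where a gene's own difference varied from area to area. The labels used here name neither the tumour line nor the mouse strain.

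The 4 areas, always listed as TREAT 1+4, TREAT 2+3, Vehicle 1+4 and Vehicle 2+3, held 54, 127, 202 and 294 members, against 218, 510, 807 and 1177 other tumour spots. Summed over members, the areas had 1689608, 4542705, 4218200 and 6584574 UMIs. A median member held 31268.5, 36732, 21495 and 20680.5 UMIs, against 33461.5, 35729, 20994 and 21841 UMIs in a median other tumour spot. The member was the deeper one in 2 of 4 areas, with p = 0.625 by a two-sided exact permutation test over the paired areas. The areas themselves held 34202695 to 56150597 UMIs over tissue, with the lower 2 totals in Vehicle. Cell cycle genes outside the rule summed to 2467 to 2698 CPM over members, against 174 to 312 CPM over tissue outside the tumour spots. The rule picked tumour spots by proliferation genes, so this gap follows from the pick and is a description only.

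Membership rested on few molecules. A median member carried 7, 6, 5 and 5 UMIs of the 6 defining genes, against 3, 2, 1 and 2 UMIs in a median other tumour spot. The spots just inside the threshold had summed scores of 179.257, 134.239, 162.516 and 181.203 CPM, and those just outside had 178.963, 134.097, 161.819 and 181.17 CPM. Members and non-members near the threshold therefore differed by under 1 CPM in each area. When each tumour spot was first thinned at random to 2000 UMIs, the pick kept 15, 39, 67 and 112 of the members, or 27.8%, 30.7%, 33.2% and 38.1% of them. At that depth a median member would hold only 0.317 to 0.454 defining UMIs.

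Ms4a7 supplied 26.1% to 38.3% of the defining UMIs over members, Msr1 17.5% to 22.7%, Cd14 12.1% to 29.8% and Mrc1 12.1% to 28.8%. Adgre1 gave 4.58% to 6.78% and F13a1 2.79% to 3.41%, so the niche is mainly one of the first 4 genes. F13a1 had a UMI in 12.9% to 16.7% of members. Mrc1 made up its largest share in Vehicle 2+3, and Cd14 in TREAT 2+3, where Mrc1 made up its smallest. The 4 markers of the niche, Mrc1, Ms4a7, F13a1 and Msr1, summed to 183.47, 105, 164.29 and 187.71 CPM over members, against 70.19, 40.7, 54.4 and 67.67 CPM over the other tumour spots. Tissue outside the tumour spots had 12.66 to 16.68 CPM of them.

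Pan-myeloid genes outside the rule went the way of the label, with much smaller differences. The 15 pan-myeloid genes, among them Cd68, Ctss and Tyrobp, summed to 3225, 2167, 2080 and 2204 CPM over members, against 2633, 2074, 1697 and 1893 CPM over the other tumour spots. That is 1.04 to 1.23 times the level of the other tumour spots, and higher in 4 of 4 areas. All 15 had a fitted change above 0, with a median log2 change of 0.22. Cd68, a lysosomal membrane protein of macrophages, had 179, 139, 143 and 175 CPM in members, against 150, 120, 125 and 138 CPM in the other tumour spots. The rest of the tumour thus also carried macrophage transcripts, and members are its upper end rather than a separate tissue. A spot covers several cells, so more macrophages and more RNA per macrophage cannot be told apart. These genes vary with the defining genes from spot to spot. No test of members against other tumour spots is therefore given for them or for the other macrophage lists as a whole. Single genes of these lists are still counted among the calls below.

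**Figure D1:**
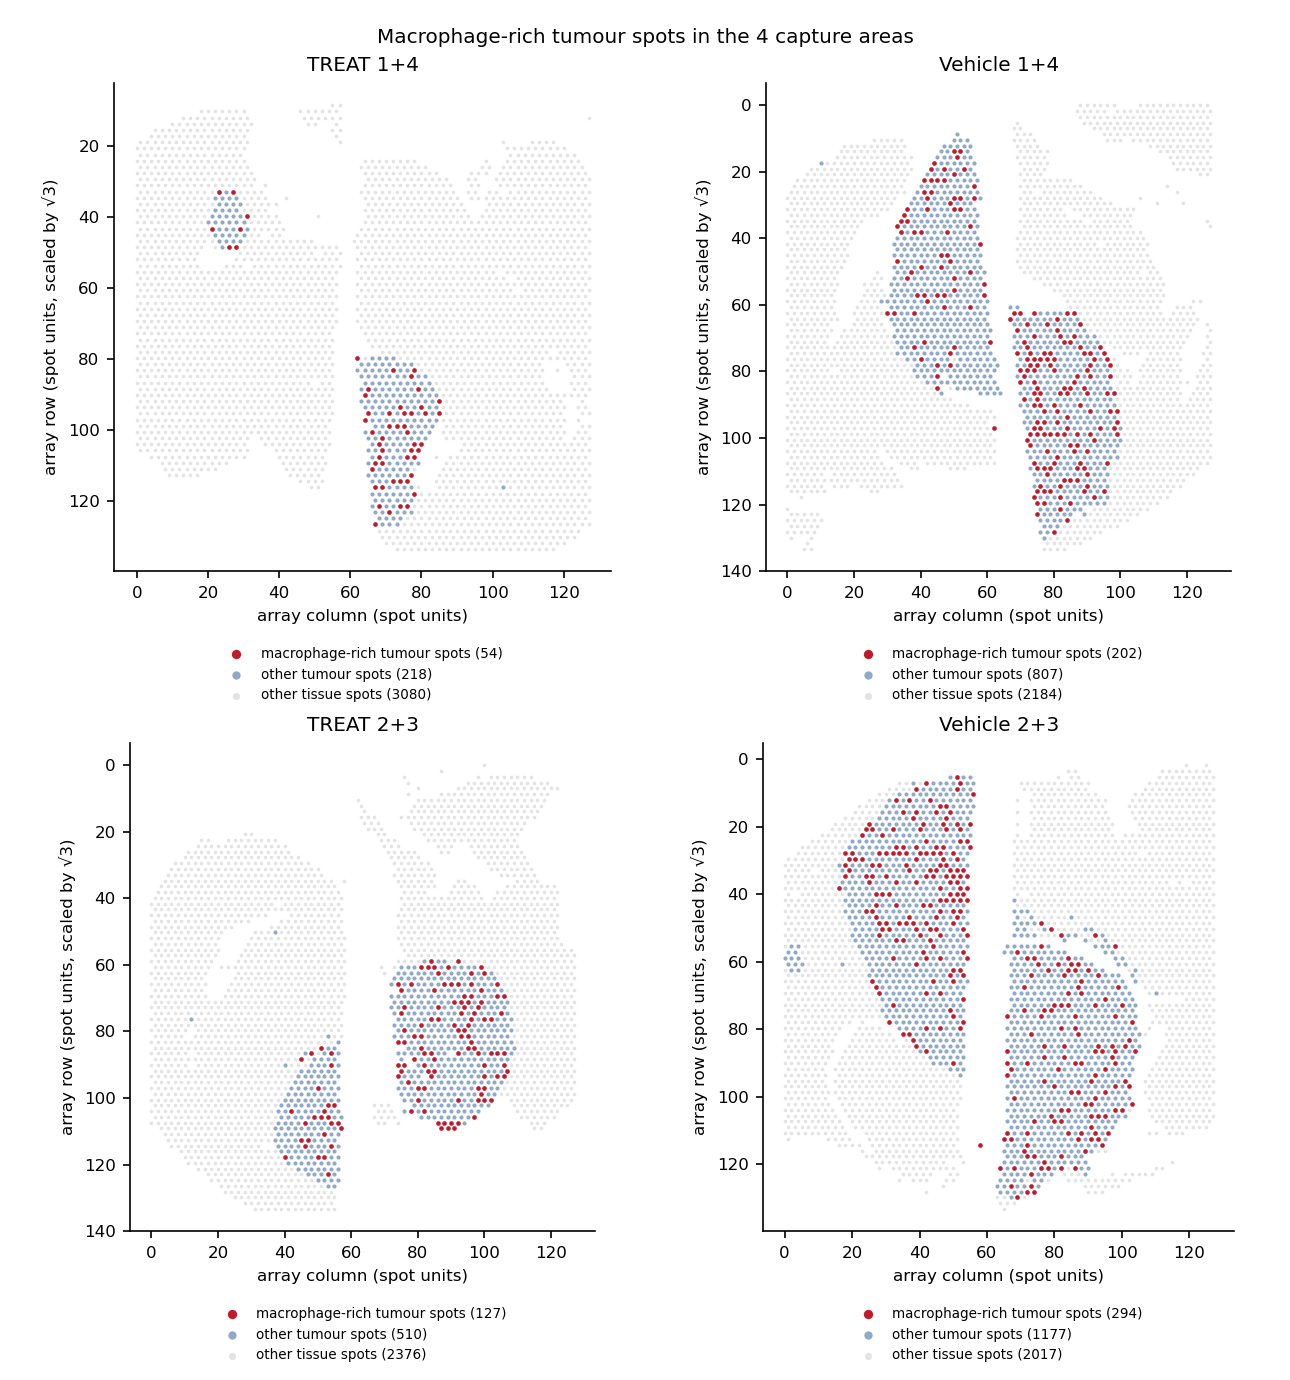
Position of macrophage-rich spots among the tumour spots of the 4 capture areas, drawn on the array's own rows and columns. Members, 54, 127, 202 and 294 per area, are scattered in small patches through the tumour rather than in 1 block. Whether a random pick of as many tumour spots would give similar patches was not tested.

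Members were spread through the tumour in small groups. They formed 28, 57, 90 and 139 connected patches, the largest of 7, 14, 19 and 34 spots. A share of 26.8% to 29.6% of members had no member beside them. Whether a random pick of as many tumour spots would give similar patches and lone members was not tested. The patches and lone members are therefore a description only. Of a member's tumour neighbours, 24.7% ± 1.24 were members, against 18.2% ± 0.298 for the other tumour spots (SD, n = 4 areas). The share was higher around members in 4 of 4 areas, an outcome as extreme as 2 of the 16 sign patterns of a two-sided exact permutation test. That is the smallest p this test can give with 4 areas, so it cannot fall under 0.05 here. In the pick made on thinned counts this difference was -0.00193 percentage points. Neighbouring places off the tissue made up 6.48% around members and 4.58% around the other tumour spots, again higher in 4 of 4 areas and at the smallest p of the same exact test. Tissue outside the tumour made up 5.65% of the tissue neighbours of members, against 4.39% for other tumour spots, higher in 4 of 4 areas at the same smallest p, and this difference turned to -0.561 points in the thinned pick.

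The left and right piece of tissue held 7 and 47 members in TREAT 1+4, among 45 and 227 tumour spots, and 26 and 101 in TREAT 2+3, among 192 and 445. They held 68 and 134 members in Vehicle 1+4, among 532 and 477 tumour spots, and 168 and 126 in Vehicle 2+3, among 739 and 732. The piece with more tumour spots held more members in 3 of 4 areas, and in Vehicle 1+4 the piece with fewer held more. For hypoxia no difference was detectable: 20.2% of members were in the top 20% of tumour spots by a hypoxia list, against 19.9% of the other tumour spots, with an exact permutation p of 0.875. For a list of interferon-induced genes the shares were 19.2% of members and 20.1% of the other tumour spots, with an exact p of 0.875. For T and NK cell genes they were 31.5%, 21.3%, 27.2% and 19.0% of members, against 17.0%, 19.6%, 18.2% and 20.2% of the other tumour spots. Members were ahead in 3 of 4 areas, most in TREAT 1+4 and Vehicle 1+4 and not in Vehicle 2+3, and the exact permutation p was 0.25.

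Beyond the defining genes, members differed from the other tumour spots of their areas in 121 of 15752 genes tested, or 0.768%. Chemokines, immunoglobulins and MHC class II genes were among the 108 that rose (0.686%), and 13 fell (0.0825%). Counts were summed per area and class of spot and compared by edgeR's quasi-likelihood test with the area as a block and Benjamini-Hochberg adjustment at 0.05. The changes were small: among genes that rose, the fitted log2 change ran from 0.14 to 1.29 with a median of 0.31. Of the 121, 98 changed the same way in all 4 areas. Without Vehicle 1+4 the number was 65 and without Vehicle 2+3 it was 56, and DESeq2 called 22. When members were picked on thinned counts 5 genes passed. Of the 121, only Ccl5 kept its call there and 101 kept their sign. Of the 108, 24 belong to macrophage lists tied to the rule, 28 to other lists, and 56 to none. Myeloid genes outside the tied lists may also vary with the defining genes. Among them are Acod1, Wfdc17, Ctsc, Fgl2, Lilrb4a, Sirpa, Adam8, the myeloid chemokines and the MHC class II genes. Their p-values are therefore not independent of the pick. The genes named here come from a fixed rule on p-values, so their changes are among the clearest.

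Ccl8, a chemokine that attracts monocytes, had the smallest p of all genes outside the rule (chr11:82115185-82116799, mouse build GRCm38.p6). It reached 168, 31.7, 56.7 and 188 CPM in members, against 107, 21.9, 43.3 and 105 CPM in the other tumour spots. The level varied more between areas than between classes of spot, yet in each area the members were higher. The log2 change was 0.68 ± 0.06 (SE), with an adjusted p of 3.66e-12 by edgeR's quasi-likelihood test.

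Of the 19 myeloid chemokine genes tested, 8 rose by edgeR and none fell, against 0.686% of all genes that rose. DESeq2 called 2, Ccl5 and Ccl8. The list had a median log2 change of 0.31 against -0.0007 over all genes. Ccl5, which attracts T cells and monocytes (chr11:83525778-83530518), had 148, 129, 169 and 137 CPM in members and 134, 108, 110 and 106 CPM in the other tumour spots. Members were higher in all 4 areas, most in Vehicle 1+4, and the log2 change was 0.36 ± 0.05 (edgeR adjusted p = 3.55e-06). Ccl6 and Ccl7, both monocyte attractants, rose by 0.50 ± 0.09 and 0.39 ± 0.07. Ccl6 had 68.5, 20.5, 22.1 and 66.2 CPM in members, against 38.4, 20.8, 22.2 and 39.1 CPM in the other tumour spots. Its difference therefore lay in TREAT 1+4 and Vehicle 2+3, while in TREAT 2+3 and Vehicle 1+4 the classes were level. Cxcl2, a neutrophil attractant, rose by 0.50 ± 0.10, and Ccl12, Ccl9 and Cxcl16 rose by 0.31, 0.44 and 0.26.

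Acod1 makes itaconate in activated macrophages (chr14:103047012-103056573). It had 51.5, 50.7, 41.2 and 49.3 CPM in members and 41.4, 36.4, 25.4 and 32.5 CPM in the other tumour spots. Of the 4 member values, 3 lay above every value of the other tumour spots, and the lowest, 41.2 CPM in Vehicle 1+4, lay just under the 41.4 CPM of the other tumour spots of TREAT 1+4. Its log2 change was 0.54 ± 0.07, with an edgeR adjusted p of 4.95e-07. Ctsc, cathepsin C, a protease that activates granule enzymes (chr7:88278024-88315861), had 115, 91.3, 239 and 318 CPM in members and 89.9, 74, 188 and 260 CPM in the other tumour spots. Its log2 differences of 0.36, 0.30, 0.34 and 0.29 were nearly equal across areas, with an edgeR adjusted p of 1.26e-06.

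Wfdc17, a small secreted protein of activated macrophages, rose by 0.49 ± 0.07, and Fgl2, a fibrinogen-like protein that restrains T cells, rose by 0.32 ± 0.05. Fgl2 had 130, 114, 106 and 122 CPM in members, against 104, 98.1, 78.4 and 95.9 CPM in the other tumour spots, with no overlap between the classes. The serine protease inhibitor Serpina3g rose by 0.44 ± 0.07. Igfbp2, which binds insulin-like growth factors, rose by 0.44 ± 0.06, but 39.05% to 67.48% of its UMIs over members came from the 5 highest members of an area. C3 and Apoe also followed from the rule on p-values. Both belong to lists tied to the niche rule, so they are given as values. C3, the central complement protein, had 204, 75.8, 148 and 114 CPM in members and 125, 64.8, 86.7 and 96.9 CPM in the other tumour spots. Apoe had a fitted log2 change of 0.21.

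**Figure D2:**
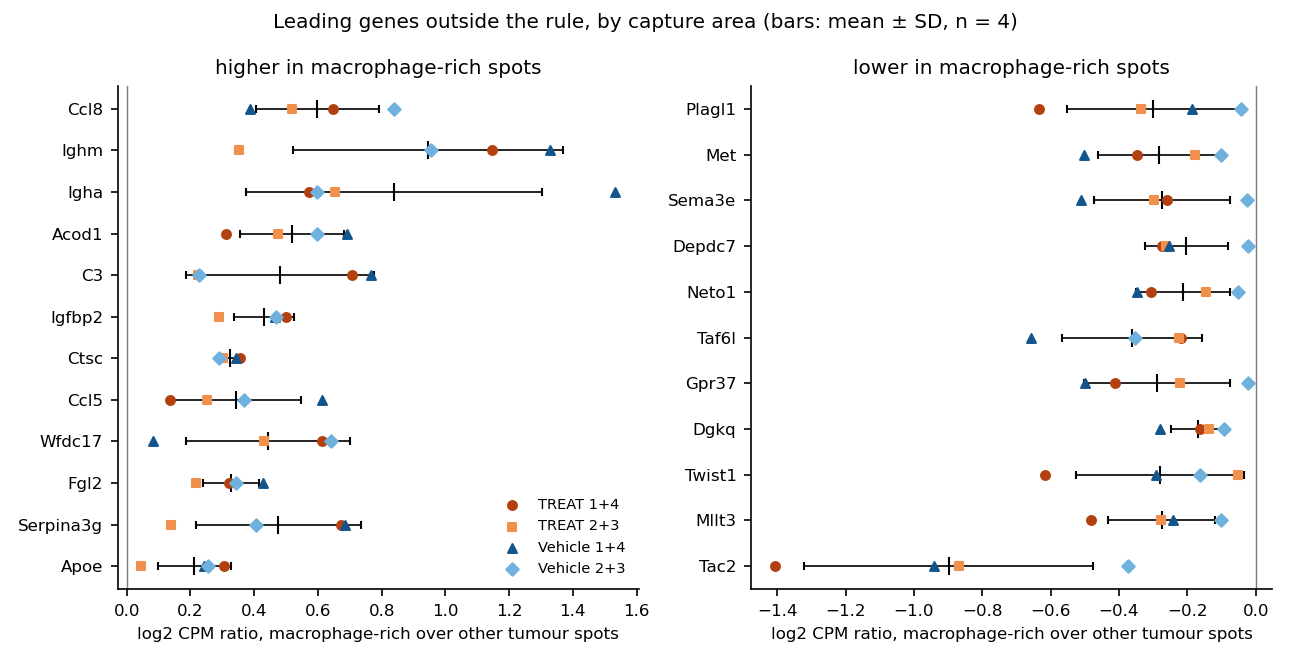
Log2 ratio of CPM, macrophage-rich spots over the other tumour spots of the same area, for the leading genes that were higher (left) and lower (right) in members, with 1 point per capture area and bars for the mean ± SD (n = 4). All points lie on 1 side of 0, since the rule for these genes asked for the same sign in all areas; those of Ctsc lie close together, at 0.29 to 0.36, and those of Ighm lie apart, at 0.35 to 1.33.

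Immunoglobulin transcripts rose as well, and they lay in few spots. Ighm, the IgM heavy chain (chr12:113418826-113422730), had 41.4, 16.4, 60.1 and 31.2 CPM in members, against 18.4, 12.7, 23.7 and 15.8 CPM in the other tumour spots. Members were higher in each area, by the least in TREAT 2+3, and the log2 change was 1.01 ± 0.10 (edgeR adjusted p = 6.13e-10). Igha, the IgA heavy chain, rose by 0.86 ± 0.11. Of the Ighm UMIs over members, 31.65% to 69.91% came from the 5 highest members of an area, against 12.57% to 25.55% for Ccl8. For Igkc and Igha this was 65.05% to 74.89% and 67.86% to 85.45%. Ighm and Igkc were the 2 of 9 B and plasma cell genes that rose, against 0.686% of all genes, and Igkc was higher in members in 3 of 4 areas. None of the 16 T and NK cell genes passed edgeR's or DESeq2's test, at a median log2 change of 0.18, and 3 had an unadjusted edgeR p under 0.05. With 16 genes and 0.768% of all genes called by edgeR, 0 calls is near the background.

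Genes of antigen presentation were examined by MHC class. Class II genes may vary with the defining genes, so their calls are not independent of the pick. Of the 10 MHC class II genes tested, 4 rose by edgeR, against 0.686% of all genes, and DESeq2 called 3. Their median log2 change was 0.18, though the median of their ratios in TREAT 2+3 alone was -0.0042. Further, 0 of the 12 MHC class I genes passed, by edgeR, by DESeq2 or at an unadjusted p under 0.05, at a median of 0.003. H2-Ab1, a class II beta chain, had 663, 630, 843 and 839 CPM in members and 525, 587, 702 and 751 CPM in the other tumour spots. Members were higher in all 4 areas, least in TREAT 2+3, with a log2 change of 0.21 ± 0.04 (edgeR adjusted p = 0.000269). H2-Eb1 rose by 0.21 ± 0.04, and Cd74, the invariant chain that guides class II molecules, and H2-Aa each rose by 0.17. With 12 genes and that share over all genes, 0 calls is near the background, and the difference between the 2 lists was not tested.

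Of 11 checkpoint genes, 3 rose by edgeR, against 0.686% of all genes, and DESeq2 called 1. Lilrb4a, an inhibitory receptor of myeloid cells, had 84.4, 55.9, 60.7 and 70 CPM in members and 60.7, 49.4, 44.2 and 55.4 CPM in the other tumour spots, and rose by 0.34 ± 0.06. Sirpa, the receptor for the Cd47 signal against phagocytosis, rose by 0.23 ± 0.05, though its levels in TREAT 2+3 were 48.9 CPM in members and 49.3 CPM in the other tumour spots. Cd274, which encodes PD-L1, rose by 0.20 ± 0.05. Adam8, a surface protease of myeloid cells, and the protease inhibitor Timp2 were the 2 of 14 matrix protease genes that rose, by 0.43 ± 0.08 and 0.17 ± 0.04, and DESeq2 called 0 of that list, with 2 at an unadjusted p under 0.05.

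The macrophage lists tied to the rule are given without tests. All 13 monocyte genes measured were above 0, at a median log2 change of 0.21, and 11 of 12 border macrophage genes were, at a median of 0.37. Pf4, a platelet factor also made by border macrophages, had 19.6, 15.1, 30.6 and 44.5 CPM in members, against 14.4, 8.3, 23.3 and 31.4 CPM in the other tumour spots. Of 11 homeostatic microglia genes, 5 were above 0, at a median of -0.008, and their summed level over members was 0.948 to 1.07 times that over the other tumour spots. P2ry12, a purine receptor typical of resident microglia, had 9.56, 12.4, 9.31 and 5.17 CPM in members, against 9.82, 12.6, 9.7 and 8.03 CPM in the other tumour spots. It was lower in members in all 4 areas, most in Vehicle 2+3.

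Further tied lists had medians between those. All 12 complement genes, 12 of 13 genes of disease-associated microglia and 17 of 18 lysosome and cathepsin genes were above 0, at medians of 0.17, 0.15 and 0.05. The summed complement list was still 0.998 to 1.26 times that of the other tumour spots, above 1 in 3 of 4 areas. For Fc receptors it was 0.974 to 1.265 times and for scavenger and efferocytosis receptors 0.943 to 1.16 times, each above 1 in 3 of 4 areas. All 11 alternative activation genes and all 12 inflammatory macrophage genes measured were above 0 as well, at medians of 0.23 and 0.29. Arg1, the arginase of alternatively activated macrophages, had 111, 17.2, 101 and 128 CPM in members and 118, 10.9, 64 and 102 CPM in the other tumour spots. It was lower in members in TREAT 1+4 and higher in the 3 other areas. Nos2, which makes nitric oxide in inflammatory macrophages, had 10.1, 13.9, 11.2 and 19.3 CPM in members against 12.3, 10.2, 10.1 and 14.5 CPM in the other tumour spots, so it too was lower in TREAT 1+4 alone.

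**Figure D3:**
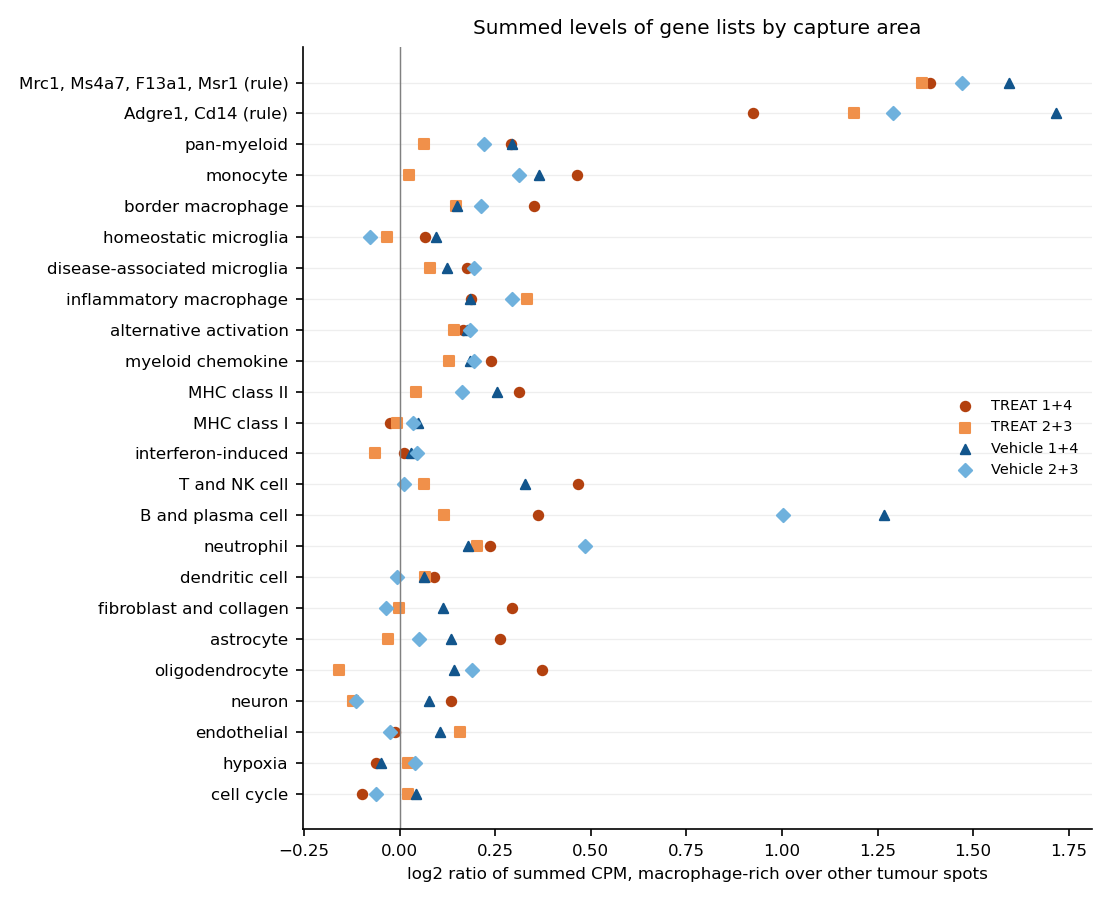
Log2 ratio of the summed CPM of each gene list, macrophage-rich spots over the other tumour spots, with 1 point per capture area; the top 2 lines hold the genes that chose the members. As plain ratios, the myeloid chemokine list lay at 1.09 to 1.18 and the MHC class II list at 1.03 to 1.24, while the MHC class I list lay at 0.982 to 1.03 and the hypoxia list at 0.959 to 1.03.

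Of 16 mesenchymal glioma genes 1 rose by edgeR and 0 by DESeq2, with 4 at an unadjusted edgeR p under 0.05. This was Tgfbi, a secreted matrix protein, at 0.20 ± 0.04. None of 15 hypoxia, 12 glycolysis, 19 interferon-induced, 13 stress response and 20 cell cycle genes passed by edgeR or DESeq2, which is near the 0.768% of all genes called by edgeR. At an unadjusted edgeR p under 0.05, there were 2, 1, 0, 2 and 2 genes of these lists. Among the 13 genes that fell was Plagl1, an imprinted zinc-finger transcription factor (chr10:13090832-13131694), with 182, 574, 582 and 526 CPM in members against 283, 724, 663 and 542 CPM in the other tumour spots. Members were lower in all 4 areas, most in TREAT 1+4 and by little in Vehicle 2+3, at a log2 change of -0.25 ± 0.04 (edgeR adjusted p = 0.000697). Met, the receptor for hepatocyte growth factor, and Sema3e, a secreted guidance protein, fell by 0.25 and 0.27 on the log2 scale. Twist1, a mesenchymal transcription factor, fell by 0.21, with 29.2, 56.9, 110 and 105 CPM in members and 45.1, 59, 135 and 117 CPM in the other tumour spots. The others with the same sign in all areas were Depdc7, Neto1, Taf6l, Gpr37, Dgkq, Mllt3 and Tac2, with log2 changes between -0.80 and -0.16.

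Markers of other tissue also moved with the niche. The share of all genes that rose was 0.686%. Of 18 fibroblast and collagen genes 3 rose, namely the type I collagen chains Col1a1 (0.42 ± 0.07) and Col1a2 (0.38 ± 0.07) and the proteoglycan Dcn (0.78 ± 0.16). Of 10 astrocyte genes 2 rose, the glutamate transporter Slc1a3 (0.40 ± 0.07) and the filament protein Gfap (0.25 ± 0.05), and of 11 oligodendrocyte genes 1 rose, the myelin claudin Cldn11 (0.43 ± 0.08). Over the areas, the summed level in members was 0.975 to 1.23 times that of other tumour spots for the fibroblast list, 0.979 to 1.2 times for the astrocyte list and 0.896 to 1.29 times for the oligodendrocyte list. In each of the 3 lists it was below 1 in TREAT 2+3. DESeq2 called 1, 1 and 0 genes of these lists, and 2 of each had an unadjusted DESeq2 p under 0.05.

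Because members lay more often next to other tissue, the comparison was repeated over spots whose 6 neighbours were all tumour spots, a choice made after seeing the data. That left 30, 89, 148 and 219 members, and 20 genes passed the edgeR test, 11 higher and 9 lower. Of the 121 genes, 15 kept their call: Acod1, Adam8, Ccl5, Ccl7, Ccl8, Cd68, Clec4a1, Ctsc, Fgl2, Pf4 and Wfdc17 higher, of which Cd68 and Pf4 belong to tied lists, and Csn3, Met, Plagl1 and Sema3e lower. The list medians for fibroblast, astrocyte and oligodendrocyte genes were -0.125, -0.116 and -0.13 there, against 0.157, 0.143 and 0.071 over all spots. The myeloid chemokine median was 0.25 there, the MHC class II median 0.087 and the B and plasma cell median 0.206. Igha and Igfbp2 turned to -1.104 and -0.1426.

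Among tumour spots outside the niche, those with at least 1 member beside them were set against those with none. None of these spots is a member, but the split follows from where the members lie. It is therefore not independent of the defining genes. There were 139, 312, 494 and 761 spots beside the niche and 79, 198, 313 and 416 farther away. Of 16215 genes, 4 were higher beside the niche (0.0247%) and 82 lower (0.506%), or 0.53% in either direction, by edgeR's quasi-likelihood test with Benjamini-Hochberg adjustment. Ccl8 had 119, 24.4, 48.8 and 120 CPM beside the niche, against 85, 15.8, 36.2 and 79.4 CPM farther away. It was higher beside the niche in all 4 areas, by 0.54 ± 0.06 on the log2 scale (edgeR adjusted p = 0.000224). Pf4, of a list tied to the rule, rose by 0.54 ± 0.10. It had 16.3, 9.55, 25.8 and 35.7 CPM beside the niche and 10.9, 5.46, 20.5 and 24 CPM farther away. Glrp1, a glutamine-repeat protein, and Gzmc, a granzyme, were the other 2, at 0.38 and 0.60. Ccl8, Gzmc and Pf4 passed as higher both in the niche and beside it. Beside the niche, Gzmc was not higher in all 4 areas, unlike Ccl8 and Pf4. Of 15 alternative settings there, Gzmc passed in 4, Pf4 in 8 and Ccl8 in 15. The total of 86 genes became 32 without TREAT 2+3, 135 without Vehicle 1+4 and 29 without Vehicle 2+3.

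Genes of normal brain cells were among those lower beside the niche. Of 11 oligodendrocyte genes 5 fell, of 10 astrocyte genes 3 and of 11 neuron genes 1 by edgeR, against 0.506% of all genes. DESeq2 called 3, 1 and 1. The myelin gene Mobp had 61.1, 51.6, 19.1 and 25.9 CPM beside the niche and 83.7, 109, 27.9 and 51.1 CPM farther away, lower in each area, with a log2 change of -0.84 ± 0.09. Mbp, which encodes a main myelin protein, fell by 0.65, and the glutamate transporter Slc1a2 fell by 0.69. Spots farther away also had fewer tumour neighbours, 5.24 to 5.41 on average against 5.34 to 5.71 beside the niche. Over spots with 6 tumour neighbours only, 1 gene, Ccl8, passed the edgeR test.

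**Figure D4:**
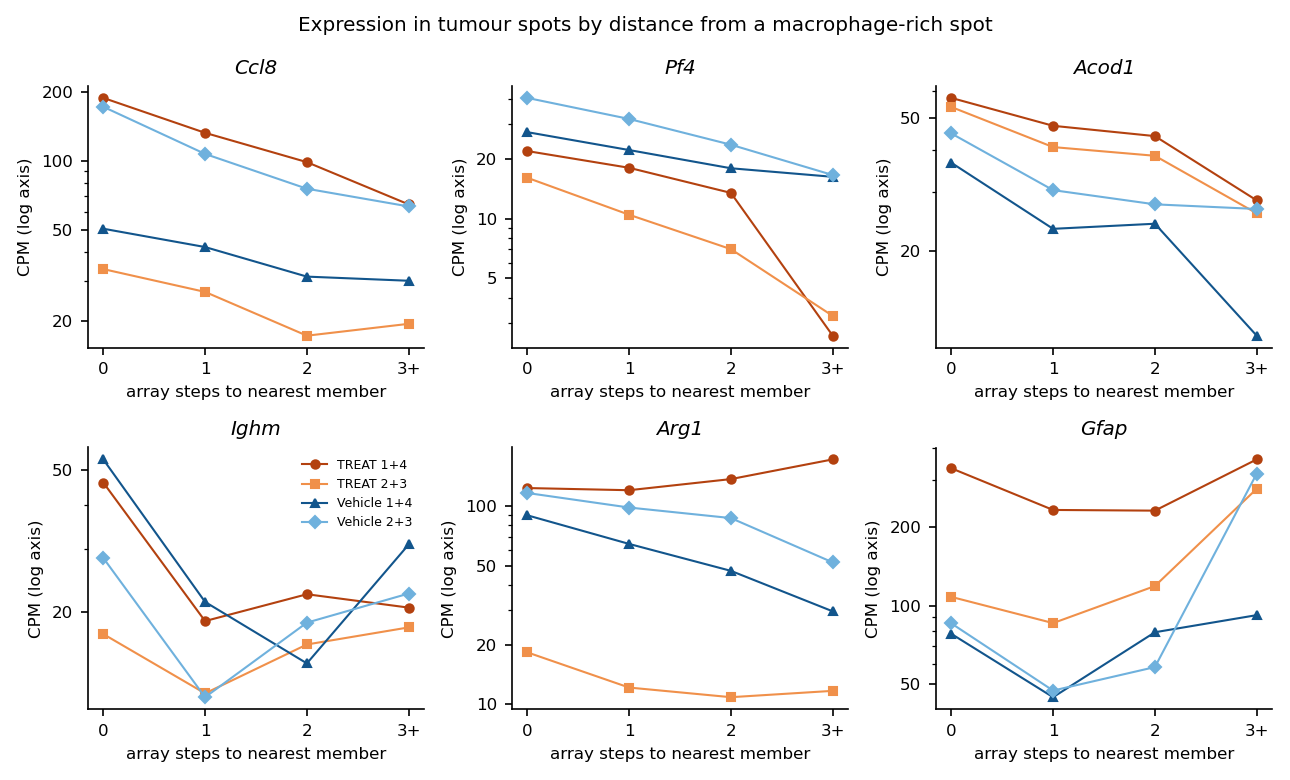
Level of Ccl8, Pf4, Acod1, Ighm, Arg1 and Gfap, in CPM of plain library totals on a log axis, in members (0 steps) and in tumour spots at 1, 2 and 3 or more steps from the nearest member, 1 line per capture area. Ccl8 and Pf4 were highest in members and lower with each step to 2 in all 4 areas, while Gfap had no such order.

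On plain library totals, Ccl8 had 188, 132, 98.5 and 64.4 CPM at 0, 1, 2 and at least 3 steps from a member in TREAT 1+4, and 33.7, 26.8, 17.3 and 19.4 CPM in TREAT 2+3. In Vehicle 1+4 it had 50.5, 42, 31.2 and 30 CPM and in Vehicle 2+3 172, 107, 75.4 and 63.1 CPM. Each area therefore descended over the first 3 distances. Pf4 did the same, with 21.9, 18, 13.5 and 2.58 CPM in TREAT 1+4, where the farthest bin held only 11 spots, and 40.5, 31.8, 23.6 and 16.6 CPM in Vehicle 2+3. Ighm had 53.6, 21.4, 14.4 and 31 CPM in Vehicle 1+4 and was thus higher again in the farthest bin.

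The study's own question is the hydrogel, and it was asked here within the niche. Of 14542 genes tested over the member sums of the 4 areas, 489 were higher in TREAT (3.36%) and 1192 lower (8.2%), or 11.6% in either direction, by edgeR's quasi-likelihood test. Genes of the stress response and of ribosome assembly fell and oligodendrocyte genes rose, while none of the 15 pan-myeloid genes passed (1 did by DESeq2, and 1 had an unadjusted edgeR p under 0.05). The total was 2573 without TREAT 1+4, 2848 without TREAT 2+3 and 762 without Vehicle 1+4. The direction of the calls depended on scaling: with library totals in place of TMM factors 1517 genes were higher and 657 lower, and the median of all genes lay at 0.254 against 0.0387. Of the 489 genes higher in TREAT, 73 averaged under 2 CPM and 215 between 2 and 10 CPM, while 1184 of the 1192 lower ones averaged 10 CPM or more.

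Atf5, a transcription factor of the stress response (chr7:44812256-44816658), had the smallest p. It had 39.2 and 42.6 CPM in TREAT members, against 240 and 227 CPM in Vehicle members. Both TREAT areas lay far below both Vehicle areas, at a log2 change of -2.50 ± 0.18 (edgeR adjusted p = 0.000118). Nkd2, an antagonist of Wnt signalling (chr13:73818534-73847631), had 16.6 and 14.1 CPM in TREAT members and 68 and 80.7 CPM in Vehicle members, at -2.31 ± 0.21. Rhob, a small GTPase (chr12:8497661-8500009), had 157 and 147 CPM in TREAT members and 434 and 397 CPM in Vehicle members, at -1.45 ± 0.17. The other genes with the smallest p among those that fell were Col9a3, Tnfaip2, Ubn2, Pabpc4, 2700081O15Rik, Nucb1, Aen, Lrrc58 and Hist4h4, with log2 changes between -1.83 and -1.42. In all 12 the TREAT areas were also below the Vehicle areas in the other tumour spots; Atf5 had 44 and 41.2 CPM there in TREAT and 309 and 209 CPM in Vehicle.

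Of 13 stress response genes 6 fell and none rose, at a median log2 change of -0.60. Chac1, which degrades glutathione, had 30.4 and 34.2 CPM in TREAT members and 87.5 and 82.3 CPM in Vehicle members, at -1.38. Sesn2 and Herpud1, induced by nutrient and endoplasmic reticulum stress, fell by 1.09 and 1.06 on the log2 scale. Of 12 genes of Myc response and ribosome assembly 6 fell, at a median of -0.53, led by Mrto4 at -1.77. Of 15 hypoxia genes 4 fell, among them the glucose transporter Slc2a1 with 164 and 263 CPM in TREAT members against 486 and 517 CPM in Vehicle members, and Ddit4, Kdm3a and Vegfa. Of 12 glycolysis genes 3 fell, of 11 immediate early genes 4 and of 20 cell cycle genes 4, beside 8.2% of all genes. The medians of the stress, ribosome assembly, hypoxia and glycolysis lists kept their sign with library totals, at -0.384, -0.31, -0.156 and -0.101, while that of the cell cycle list turned to 0.179 from -0.039.

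Bhlhe40, a transcription factor of activated immune cells and of hypoxia (chr6:108660629-108666925), led the genes higher in TREAT. It had 136 and 122 CPM in TREAT members and 56.5 and 54.8 CPM in Vehicle members, at a log2 change of 1.21 ± 0.17 (edgeR adjusted p = 0.00305). Fech, the last enzyme of heme synthesis, had 82.4 and 89.4 CPM in TREAT members and 43 and 44 CPM in Vehicle members, at 0.99 ± 0.17. Several others, namely Speer4c, Btbd35f21, Btbd35f8, Btbd35f25, Gm16440 and Gm3411, belong to families with near-identical copies, and how their counts were split is uncertain. Gsg1l2, Hsf5 and Slc6a12 rested on 35, 21 and 21 UMIs over all members.

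Of 11 oligodendrocyte genes 7 rose by edgeR, against 3.36% of all genes, and DESeq2 called 2. The median log2 change was 1.44. Mobp had 84 and 62.7 CPM in TREAT members and 25.5 and 35 CPM in Vehicle members, at 1.24 ± 0.22. The whole list summed to 1471 and 896 CPM over TREAT members and 401 and 579 CPM over Vehicle members. Over the other tumour spots it summed to 1136 and 999.9 CPM in TREAT and 363 and 507 CPM in Vehicle, so the difference was not particular to members. Members in TREAT also had more neighbours of non-tumour tissue, 9.76% and 5.15%, against 3.34% and 4.32% in Vehicle. The other tumour spots went the same way, with 6.9% and 5.05% in TREAT and 2.22% and 3.37% in Vehicle. Over spots with 6 tumour neighbours the list median was 0.839. Astrocyte genes summed to 1002 and 577 CPM over TREAT members and 471 and 525 CPM over Vehicle members. Of 10 astrocyte genes 1 rose, the water channel Aqp4 (1.59 ± 0.45), and of 9 oligodendrocyte precursor genes 3 rose, Lhfpl3, Cspg5 and Ptprz1, at 1.25, 1.12 and 1.20, while DESeq2 called 0 of either list and 2 and 4 had an unadjusted DESeq2 p under 0.05. The medians of these 2 lists were 0.366 and 0.688, and over spots with 6 tumour neighbours they were -0.035 and 0.041. The neuron list summed to 298 and 292 CPM over TREAT members and 262 and 247 CPM over Vehicle members. None of its 12 genes passed by edgeR or DESeq2 (2 had an unadjusted edgeR p under 0.05), beside 11.6% of all genes by edgeR. What part surrounding tissue has in these values was not tested.

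Single macrophage genes outside the rule passed in each direction. The median log2 change of the 15 pan-myeloid genes was 0.05. Of 11 border macrophage genes 7 were above 0, at a median of 0.23, and 2 fell, against 8.2% of all genes: Pf4, with 20.5 and 15.3 CPM in TREAT members and 29.9 and 44.3 CPM in Vehicle members (-1.11 ± 0.26), and the transcription factor Maf, at -1.0. Of 13 genes of disease-associated microglia only 4 were above 0, at a median of -0.20. In that list 1 gene rose, beside 3.36% of all genes, and 1 fell. The gene that rose was Cst7, which encodes cystatin F. It had 44.8 and 29.6 CPM in TREAT members and 13 and 14.8 CPM in Vehicle members, at 1.37 ± 0.26. Cd36, a lipid scavenger receptor, had 24.9 and 19.7 CPM in TREAT members and 6.77 and 8.46 CPM in Vehicle members, at 1.5 ± 0.29. For both Cst7 and Cd36 the 2 TREAT values lay above the 2 Vehicle values. Of 7 scavenger and efferocytosis receptor genes, at a median of 0.36, Cd36 rose and Scarb1, a lipoprotein receptor, fell by 1.04. The cathepsin Ctsl, the 1 of 18 lysosome and cathepsin genes that fell, did so by 0.90. The tetraspanin Cd9, of the disease-associated microglia list, fell by 0.74 on the log2 scale.

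**Figure D5:**
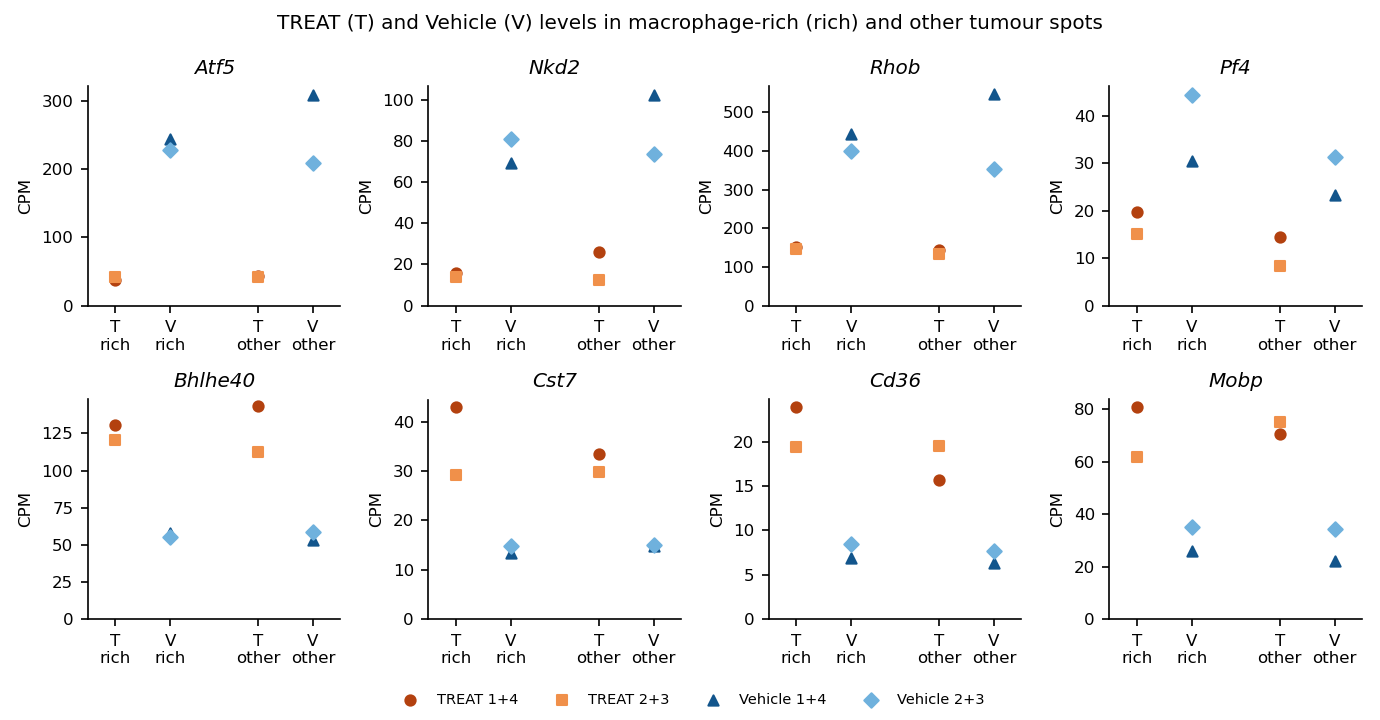
Level of 8 genes in CPM, on axes that start at 0, over macrophage-rich and over other tumour spots in the 2 TREAT and the 2 Vehicle areas, 1 point per area, scaled as in the comparison of members with other tumour spots. In both classes of spot, Atf5, Nkd2, Rhob and Pf4 were lower in both TREAT areas than in either Vehicle area, and Bhlhe40, Cst7, Cd36 and Mobp were higher.

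Among chemokines, Cxcl9, an interferon-induced attractant of T cells, had 164 and 145 CPM in TREAT members and 88 and 102 CPM in Vehicle members and rose by 0.69 ± 0.17. Cxcl1, a neutrophil attractant, rose by 1.71 but rested on 42 UMIs. They were the 2 of 18 myeloid chemokines that passed by edgeR, a share near the 11.6% of all genes, and DESeq2 called 1. Ccl8, the gene outside the rule with the smallest p for membership, had 175 and 32.1 CPM in TREAT members and 55.5 and 188 CPM in Vehicle members, and the groups overlapped. Ctsc had 120 and 92.6 CPM in TREAT members against 234 and 316 CPM in Vehicle members and fell by 1.39 ± 0.20. Acod1 and Ccl5 did not pass, with 53.6 and 51.4 CPM and 154 and 131 CPM in TREAT members, and 40.4 and 49.1 CPM and 165 and 136 CPM in Vehicle members. Of 12 MHC class I genes 3 fell, against 8.2% of all genes, namely the class I activator Nlrc5 (-0.81), tapasin, Tapbp (-1.37), and the peptide transporter Tap2 (-0.80). None of 10 MHC class II genes passed by edgeR or DESeq2 (1 had an unadjusted edgeR p under 0.05), beside 11.6% of all genes by edgeR.

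The defining genes are given as levels only. Mrc1 had 37.6 and 19.1 CPM in TREAT members and 39.1 and 76 CPM in Vehicle members, and Ms4a7 had 80.2 and 41.1 CPM in TREAT members and 90.3 and 71.7 CPM in Vehicle members. Msr1 had 47.5 and 35.5 CPM in TREAT members and 42.7 and 48.6 CPM in Vehicle members. The threshold was set within each area, so the number of members follows the number of tumour spots, 272 and 637 in TREAT and 1009 and 1471 in Vehicle.

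Whether the niche stood out from its own tumour to another extent in TREAT was tested as an interaction over the 8 sums. Of 17933 genes, 3 had a higher niche difference in TREAT (0.0167%) and 6 a lower one (0.0335%), or 0.0502% in either direction, and none of the 24 genes named above for the hydrogel was among them. Immunoglobulin genes made up 4 of the 6. Igkc, the kappa light chain, had 247 and 21.3 CPM in TREAT members against 213 and 24.4 CPM in the other tumour spots, and 190 and 224 CPM in Vehicle members against 75.7 and 105 CPM in the other tumour spots. Members held more Igkc in both Vehicle areas, and the log2 interaction was -1.09 ± 0.10 (edgeR adjusted p = 3.46e-16). Most Igkc UMIs of members came from 5 spots an area. With the niche cut at the top 10%, picked on thinned counts or limited to spots with 6 tumour neighbours, the interaction was 0.496, 0.2381 and 0.308. Without Vehicle 2+3, 18 genes passed. Mt2, a metallothionein, had 793 and 869 CPM in TREAT members against 758 and 766 CPM in the other tumour spots, and 891 and 786 CPM in Vehicle members against 1132 and 839 CPM in the other tumour spots. Its niche difference was above 0 in both TREAT areas and below 0 in both Vehicle areas, at a log2 interaction of 0.34 ± 0.07. Tes and Csn3 had interactions of 0.35 and 0.41, and Igf2bp1, Mt1 and Wnt7b, next by p, did not pass.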

How the data were processed

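Probe pairs hybridized to fixed tissue were ligated and captured on arrays of barcoded spots. The authors deposited the raw UMI count of each gene in each spot. The submitters' processing notes name Space Ranger 2.1.1, R 4.4.1, Seurat and the build mm10. The method that marked tissue is not stated there. Of 32589 features, 304 marked deprecated were left out. The rule's own genes were kept out of counts of calls but stayed in the fits and in the Benjamini-Hochberg adjustment. Adjusted p-values for members against other tumour spots can therefore be lower than without those genes. Of 15779 genes in the niche fit, 15540 matched RefSeq's GRCm38.p6 table by symbol, which gave the positions.

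The members, the 45 gene lists and the tests were chosen with earlier results of these data known. Tied lists, 14 in all, hold macrophage genes. Raw counts were summed per area and class of spot, since spots are not replicates, and fitted with edgeR 4.0.16 in R 4.3.3 (quasi-likelihood F-test, TMM scaling, filterByExpr, Benjamini-Hochberg adjustment, threshold 0.05). The area was a block except for TREAT against Vehicle, where each area gave 1 sum. An SE is the log2 change, without its sign, divided by the square root of the F statistic. CPM are TMM-scaled within each fit unless said otherwise, so that a gene's CPM can differ slightly between fits. List levels and values by step use library totals. Positions were compared by exact sign-flip permutation over 4 areas. Named genes were the 12 with the smallest p per direction among those past the threshold with the same sign in all areas, or the 6 smallest p where fewer than 6 passed, and up to 4 genes per list, or 6 for tied lists. Genes beyond that rule, among them Ctsc, Acod1 and Ccl5 within TREAT, Ccl12, Ccl9 and Cxcl16, were given after their values were seen. Alternatives were DESeq2 1.42.0, other scalings, filters, thresholds and picks, leaving out each area, sums per piece and, added after seeing the data, spots with 6 tumour neighbours. The fits were tested on simulated data. Spots hold several cells, so doublets were not called. Tables and figures used Python 3.11.15, numpy 2.4.6, scipy 1.17.1, pandas 2.3.3 and matplotlib 3.10.9.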

Additional observations from a re-analysis of the deposited data

Results flagged for a closer look

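In 5 of 68 sets of 4 area values examined, 1 area lay far from the other 3, and chance alone gives this in about 1 set in 20. For Igha the log2 difference between members and the other tumour spots was 1.53 in Vehicle 1+4, against 0.57 to 0.66 in the other areas. For Igfbp2 it was 0.29 in TREAT 2+3, against 0.47 to 0.50, and for Depdc7 it was -0.0214 in Vehicle 2+3, against -0.27 to -0.25. The summed lysosome and cathepsin list had a log2 ratio of 0.13 in Vehicle 2+3, against 0.04 to 0.06, and the neural progenitor and tumour list one of -0.0435 in Vehicle 1+4, against 0.08 to 0.10.

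The difference between members and the other tumour spots was itself unequal between TREAT and Vehicle for 9 genes, by edgeR's test of the interaction. The log2 interaction was -1.09 for Igkc, -1.41 for Ighj1, -1.85 for Ighg2c and -2.22 for Iglc1, all immunoglobulin segments or chains. It was -0.41 for Col9a2, a collagen chain, and -1.14 for Gzmg, a granzyme. It was 0.34 for Mt2, 0.35 for Tes and 0.41 for Csn3. Ighg2c had 25 and 2.07 CPM in TREAT members against 50.5 and 4.15 CPM in the other tumour spots, and 8.51 and 15.3 CPM in Vehicle members against 4.47 and 8.88 CPM in the other tumour spots. What sets these genes apart was not tested.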

How the results depend on the processing

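Of 1200 values for named genes under alternative settings, 929 kept direction and call, 246 lost the call, 9 gained one and 16 turned sign. At 2000 UMIs a spot, far below the median depth of members, the pick kept 27.8% to 38.1% of members. A random pick of 20% of tumour spots would keep about 20%. For members against other tumour spots, 121 genes passed. The total was 22 with DESeq2 (22 of them higher), 67 with the top 30% as members, 5 with the pick on thinned counts (1 of the 121 among them), 30 with a tumour threshold of 2500 CPM, 47 with the top 20% taken per piece, 20 over spots with 6 tumour neighbours, and 56 to 121 on leaving out 1 area. Without the area block 0 passed edgeR, and 38 had an unadjusted p under 0.05. For TREAT against Vehicle, 1681 passed. The total was 2584 with no filter, 852 and 3180 with the top 10% and top 30%, and 762 to 2848 on leaving out 1 area. The share of calls higher in TREAT was 29.1%, against 69.8% with library totals and 9.0% with DESeq2.

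With the label numbers as a replicate block, 2249 passed and 1669 of the 1681 kept their call. Same-numbered areas had a correlation of deviations of -0.052, so the numbers are not shown to pair the areas.

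For the interaction, 9 passed. The total was 1 with DESeq2, 5 over genes of at least 10 CPM, 3 with the top 30%, 4 with the thinned pick, 4 with the 2500 CPM threshold, 5 per piece, and 7 to 18 on leaving out 1 area. For spots beside the niche, 86 passed. The total was 30 with DESeq2, 143 with no filter, 42 over genes of at least 10 CPM, 253 with the top 30%, 220 with the thinned pick, 10 with the 2500 CPM threshold, 190 per piece, 1 over spots with 6 tumour neighbours, and 29 to 135 on leaving out 1 area.

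Signs turned as follows, and the cause was not tested. In the thinned pick, the niche difference was -0.2176 for Igfbp2, -0.002027 for Serpina3g and 0.1463 for Tac2. The interaction there was 0.2381 for Igkc, 0.3691 for Ighj1, 0.04507 for Ighg2c and 0.005165 for Col9a2. The difference beside the niche there was -0.07737 for Gzmc and 1.022 for Ttr. With the 2500 CPM threshold Igfbp2 was at -0.2186. Over spots with 6 tumour neighbours Igha was at -1.104, Igfbp2 at -0.1426 and the Igkc interaction at 0.308. With the top 10%, the interaction was 0.496 for Igkc and 0.09515 for Ighg2c. Without TREAT 1+4 it was 0.2966 for Gzmg, within a range of -1.563 to 0.2966 on leaving out 1 area. Of the positions, the thinned pick turned the difference in member neighbours to -0.00193 and in non-tumour neighbours to -0.561. With the top 10%, the difference was 3.11 points for places off tissue, 2.55 for non-tumour neighbours and -2.96 for the hypoxia share. On leaving out 1 area, the difference was 6.13 to 6.9 points for member neighbours, 1.33 to 2.14 for places off tissue, 0.725 to 1.65 for non-tumour neighbours, 1.79 to 3.31 for the tumour margin, 3.16 to 8.39 for the T and NK cell share, -0.563 to 1.79 for the hypoxia share and -2.16 to 1.22 for the interferon share. It was 0.146 to 0.57 steps for depth in the tumour and -951 to 114.5 for median UMIs.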
